A study of Mus musculus with 12 samples.

Results

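Glutamate and GABA receptor subunits are the 47 gene symbols, of 25239 in the count table, that name the subunits of the ionotropic glutamate receptors (AMPA, kainate, delta and NMDA), the metabotropic glutamate receptors, the GABA-A receptors with their rho and other minor subunits, and the GABA-B receptor. The rule uses the symbol alone, but it was set with earlier results of these data known. The question was whether their transcripts differ in brain between heat stress and control, with liver as a reference tissue.

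The animals were male wild-type C57BL6/J mice aged 24 months, with no transgene in any group. The heat stress group spent 3 hours a day for 15 days at 40 °C and 60% relative humidity, and the control group was not exposed. Poly(A)-selected RNA of brain and of liver was sequenced from 3 mice per group, which gave 12 libraries. The labels name the tissue as brain and do not name a region, although each RNA extraction started from a weighed piece of frozen tissue. The deposited values are raw read counts per gene, and the 4 groups are called control brain, heat stress brain, control liver and heat stress liver below.

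Glutamate is the main excitatory and GABA the main inhibitory transmitter of the brain. AMPA, kainate and NMDA receptors are tetrameric cation channels, in which the obligatory NMDA subunit is encoded by Grin1 and the glutamate-binding subunits by Grin2a to Grin2d. GABA-A receptors are pentameric chloride channels, whereas metabotropic glutamate receptors and the GABA-B receptor act through G proteins. The GABA-B receptor works as an obligate pair in which the product of Gabbr1 binds GABA and that of Gabbr2 couples to the G protein.

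Totals lay between 11889432 and 14597197 counts in control brain, between 10552686 and 11147095 in heat stress brain and between 10466198 and 15609040 in liver. The 10 pan-neuronal markers (Snap25, Rbfox3 and others) summed to 11064 counts per 1000000 (CPM) in brain control replicate 1. In the other brain libraries they summed to between 8182 and 8889 CPM. Brain control replicate 1 also had the highest CPM of Gabbr2, Grin2b, Grin1, Grin2a and Grm2, but not of Grin2c or Gabrb1. Hepatocyte markers summed to between 76087 and 117861 CPM in liver, and the counts of Alb in brain lay between 7 and 107. Of the 12 listed markers of cerebellum, Pcp2 had 2 to 5 and Fat2 1 to 13 counts per brain library, whereas Pcp4, Calb1 and Pvalb, which other brain regions also express, had 824 or more. Liver control replicate 1 stood apart from the other liver libraries with 132 counts of Snap25, where the others had 0 to 14. The columns of liver control replicate 2 and of heat stress replicates 1 and 3 carry a suffix that the sources used here do not explain.

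In brain, 41 of the 47 subunits passed the count filter and were tested. Against control, 26 had a negative and 15 a positive log2 fold change, and none passed an adjusted p-value of 0.05 in edgeR's quasi-likelihood test, where 0% of the 14806 genes tested did. At an unadjusted p-value under 0.05, 7 subunits (17.1% of those tested) were lower after heat stress, beside 10.0% of all genes. None was higher at that threshold, again beside 10.0% of all genes. The 7 were the GABA-B subunit Gabbr2, the NMDA subunits Grin1, Grin2a, Grin2b and Grin2c, the metabotropic receptor Grm2 and the GABA-A subunit Gabrb1. The groups lay wholly apart in either direction for 6 subunits (14.6%), beside 24.9% of all genes, and heat stress was the lower group in all 6, the 7 above without Grin1 and Grin2a and with Grid1. The median log2 fold change of the 41 was -0.10, and that of all genes was -0.003.

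DESeq2, run as an alternative on the same counts, gave an adjusted p-value to 34 subunits, and 2 of them, Gabbr2 and Grin2b, were lower at an adjusted p-value under 0.05. Among all genes with an adjusted p-value from DESeq2 the share called was 7.95%. All of these values come from whole tissue, in which fewer cells of a type and less RNA per cell cannot be told apart.

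**Figure D1:**
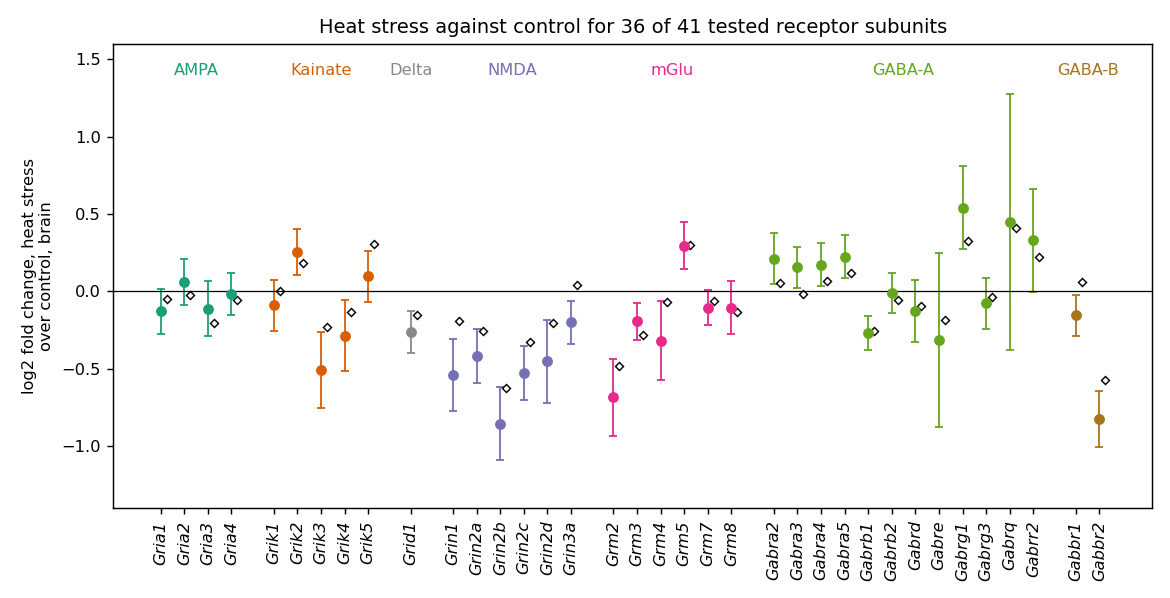
The log2 fold change of heat stress over control in brain is plotted for 36 of the 41 tested subunits, grouped by family; filled circles with bars are edgeR estimates ± SE from 3 libraries per group, and open diamonds are the estimates after each library was corrected for transcript length and GC content. All 6 NMDA circles lie below 0, Gabbr2 and Grin2b lie lowest, and the open diamonds of both lie closer to 0.

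The GABA-B receptor gave the smallest p-value of all members. Gabbr2 (chr4:46662305-46991873, minus strand, GRCm38) had normalized levels of 379, 233 and 283 CPM in the control libraries and 178, 153 and 175 CPM in the heat stress libraries. Every heat stress library was below every control library, and the control libraries varied more among themselves. The log2 fold change was -0.83 ± 0.18 (SE, n = 3 per group; edgeR adjusted p = 0.17), and DESeq2 gave an adjusted p of 0.00427. Its partner Gabbr1 (chr17:37045966-37075067), which encodes the GABA-binding subunit, had 742, 723 and 800.5 CPM in control and 688, 618 and 730 CPM after heat stress. These groups overlapped, and the log2 fold change of Gabbr1 was -0.15 ± 0.13 (edgeR adjusted p = 0.529), with a positive sign after the libraries were corrected for transcript length and GC content. Within each library, Gabbr2 gave 0.511, 0.322 and 0.354 counts per count of Gabbr1 in control and 0.258, 0.247 and 0.24 after heat stress. This ratio, which was chosen after the values had been seen and was not tested, did not overlap between the groups. The fold change of Gabbr2 stayed between -0.98 and -0.62 when any 1 brain library was left out, with an unadjusted p-value under 0.05 each time.

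The NMDA receptor held 4 of the 7 subunits with lower values. All 6 tested NMDA subunits had a negative fold change, with a median of -0.49 on the log2 scale, although that of Grin3a turned positive and the median moved to -0.23 once the libraries were corrected for transcript length and GC content. Per-length levels (transcripts per 1000000, TPM) summed over the family were 445, 299 and 349 in the control libraries and 205, 194 and 291 in the heat stress libraries. The highest heat stress library was thus just below the lowest control library.

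Grin2b (chr6:135713233-136173511), whose product forms slowly closing NMDA channels that are common in the forebrain, had 457, 342 and 286.5 CPM in control and 174, 156 and 270.3 CPM after heat stress. The groups did not overlap, but heat stress replicate 3 lay close to the lowest control. The log2 fold change was -0.86 ± 0.24 (edgeR adjusted p = 0.17), with an adjusted p of 0.0125 from DESeq2. Grin2c (chr11:115249169-115267243), a subunit of lower magnesium sensitivity, had 72.1, 70.9 and 74.6 CPM in control and 35.8, 55.7 and 59.3 CPM after heat stress. The control libraries of Grin2c were nearly equal, and its log2 fold change was -0.53 ± 0.17 (edgeR adjusted p = 0.174). Without heat stress replicate 1 it was -0.34.

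Grin2a (chr16:9567898-9995560), which encodes a glutamate-binding NMDA subunit of the mature forebrain, had 240.5, 195.5 and 174 CPM in control and 131.5, 135 and 190 CPM after heat stress. Grin1 (chr2:25291181-25319187) had 521, 292.5 and 367 CPM in control and 240, 227 and 344 CPM after heat stress. In both genes heat stress replicate 3 lay inside the control range. Their log2 fold changes were -0.42 ± 0.18 for Grin2a and -0.54 ± 0.23 for Grin1, with edgeR adjusted p-values of 0.235 and 0.237. Without control replicate 1 the estimate for Grin1 was -0.29 and that for Grin2a was -0.28, and neither reached an unadjusted p of 0.05. Both also missed it without heat stress replicate 1 or 2, Grin1 without control replicate 3 and Grin2a without control replicate 2. An antisense gene, Grin1os, overlaps 13.5% of the exon bases of Grin1, and whether the counting used strand is not stated.

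Counts of Grin2b per count of Grin2a were 1.9, 1.75 and 1.65 in control and 1.33, 1.15 and 1.42 after heat stress, so that the groups did not overlap in this ratio. It too was chosen after the values had been seen and carries no test. Grin2b per Grin1 overlapped, with 0.877, 1.17 and 0.781 in control and 0.727, 0.687 and 0.785 after heat stress. Grin2a per Grin1 overlapped too, with 0.461, 0.668 and 0.474 in control and 0.548, 0.597 and 0.551 after heat stress. The remaining NMDA subunits were Grin2d, at 15.1 ± 4.44 CPM in control and 11.0 ± 3.60 CPM after heat stress (SD, n = 3), and Grin3a, whose product lowers calcium entry, at 41.01 ± 5.30 and 35.6 ± 4.86 CPM. Neither reached an unadjusted p-value of 0.05.

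**Figure D2:**
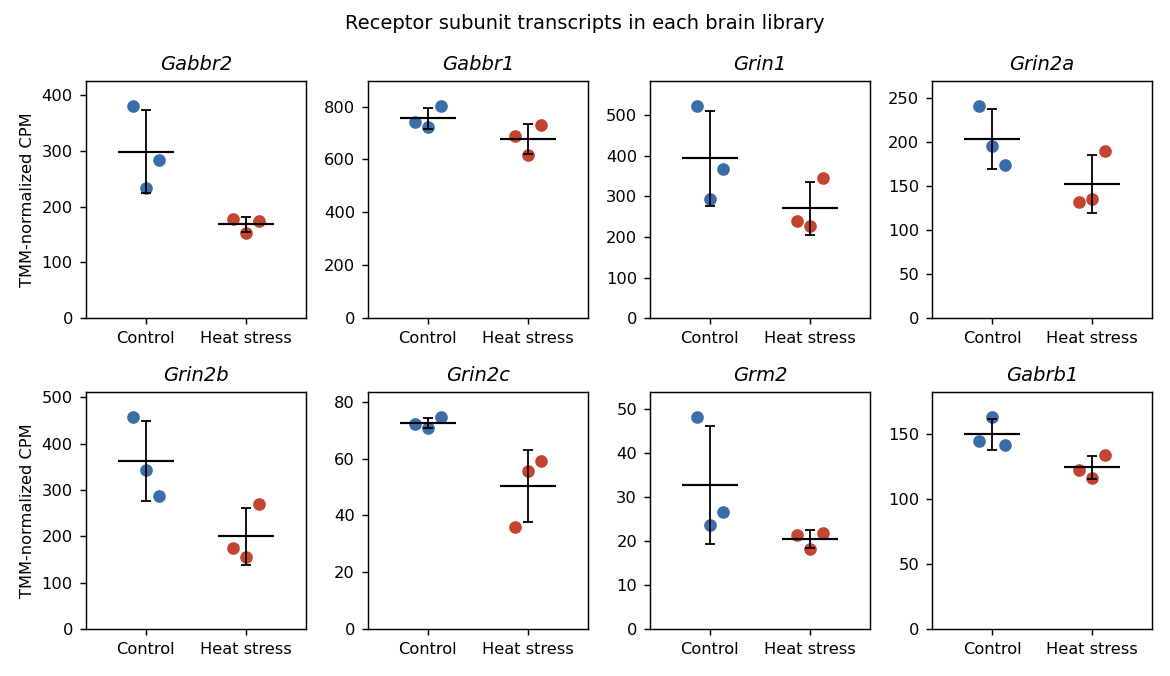
Each panel shows normalized CPM of 1 subunit in the 3 control and 3 heat stress brain libraries, with points for libraries and lines and bars for the mean ± SD; axes start at 0. The groups lie apart for Gabbr2, Grin2b, Grin2c, Grm2 and Gabrb1 and overlap for Gabbr1, Grin1 and Grin2a.

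Of the 8 metabotropic glutamate receptors, 7 were tested and 6 of these had a negative fold change. Grm2 (chr9:106643095-106656082), a presynaptic receptor that inhibits transmitter release, had 48.2, 23.6 and 26.7 CPM in control and 21.4, 18.2 and 21.9 CPM after heat stress. The groups lay apart, with control replicate 1 far above the other control libraries. The log2 fold change was -0.68 ± 0.25 (edgeR adjusted p = 0.196), and it was -0.30 without control replicate 1, where an unadjusted p of 0.05 was not reached, as without heat stress replicate 2. The antisense gene Gm28111 overlaps 9.6% of the exon bases of Grm2. Grm3, the closest relative of Grm2 and common in astrocytes, had 68.5, 67.4 and 58.0 CPM in control and 52.7, 54.8 and 61.9 CPM after heat stress, with a log2 fold change of -0.19 ± 0.12 (edgeR adjusted p = 0.368). Grm5, a receptor coupled to phospholipase C, was the member of this family with a positive estimate, at 154 ± 27.1 CPM in control and 188 ± 22.3 CPM after heat stress (SD, n = 3; edgeR adjusted p = 0.302).

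Among 16 GABA-A subunits other than rho, 14 were tested, and 9 had a positive and 5 a negative estimate; after the correction for transcript length and GC content the split was 6 positive and 8 negative, and it ranged from 7 and 7 without heat stress replicate 1 to 13 and 1 without heat stress replicate 2. Their per-length levels summed to 1271, 1325 and 1274 TPM in control and 1365, 1168 and 1301 TPM after heat stress, and these groups overlapped. Gabrb1 (chr5:71658113-72149037), a beta subunit, had 145, 163 and 141 CPM in control and 122, 116 and 134 CPM after heat stress. The groups lay apart by a small step, with a log2 fold change of -0.27 ± 0.11 (edgeR adjusted p = 0.231). It missed an unadjusted p of 0.05 without control replicate 2 or heat stress replicate 1 or 2.

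Many GABA-A genes lie in clusters. The chromosome 5 cluster (chr5:70751047-72149037) holds Gabrg1, Gabra2, Gabra4 and Gabrb1, with log2 fold changes of 0.54, 0.21, 0.17 and -0.27 in that order. The 3 positive estimates kept their sign in all 15 alternatives, but their size varied. Gabrg1 was at 0.30 without control replicate 1, at 0.89 without control replicate 2 and at 0.32 after the correction for transcript length and GC content. Gabra2 was at 0.11 without control replicate 1, at 0.36 without control replicate 2 and at 0.05 after the correction, and Gabra4 was at 0.07 without heat stress replicate 3, at 0.29 without control replicate 3 and at 0.06 after the correction. Gabra4 and Gabrb1 are transcribed away from each other and share 46 exon bases at their starts. Gabrg1, at 31.6, 70.3 and 45.2 CPM in control and 82.4, 77.5 and 53.6 CPM after heat stress, overlapped between groups (edgeR adjusted p = 0.291). On chromosome 11, Gabrb2 (chr11:42419757-42629028) had an estimate of -0.01. Its neighbour Gabra6 (chr11:42306437-42321072), which marks cerebellar granule cells, had 1, 3 and 1 counts in control and 6, 5 and 6 counts after heat stress, too few for the filter. The summed rate was 4.02 times the control rate, with an exact 95% interval from 1.42 to 13.9 that covers counting error only. The gene was picked after its values had been seen. Across mice, DESeq2 gave it an unadjusted p of 0.0739, and edgeR without a filter gave 0.0214 (adjusted p = 0.226).

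No AMPA, kainate or delta subunit reached an unadjusted p of 0.05. The median log2 fold change was -0.07 for the 4 AMPA subunits, -0.09 for the 5 kainate subunits and -0.05 for the 2 delta subunits; after the correction for transcript length and GC content the kainate and delta medians were positive, at 0.003 and 0.15. The AMPA median was 0.03 without control replicate 1, 0.007 without heat stress replicate 2 and -0.16 without heat stress replicate 3. The delta median was 0.02 without control replicate 1, 0.08 without heat stress replicate 2 and -0.18 without heat stress replicate 1, and the kainate median lay between -0.21 and -0.02 without 1 library. The estimate farthest from 0 in these families was that of the kainate subunit Grik3, at -0.51 ± 0.25 (edgeR adjusted p = 0.277). Gria1, an AMPA subunit required for hippocampal plasticity, had 390, 472 and 396 CPM in control and 360.1, 348 and 442 CPM after heat stress, which overlapped. Grik5, a kainate subunit that needs a partner to form a channel, had 223.5, 203.5 and 163 CPM in control and 170, 221 and 240 CPM after heat stress. The estimate for Grik5 (0.10 ± 0.17) changed its sign without replicate 3 of either group. It was 0.30 after the correction for transcript length and GC content. Grid1, a delta subunit that binds synaptic organizers, had 54.3, 44.8 and 44.6 CPM in control and 43.9, 33.9 and 41.9 CPM after heat stress. These libraries lay apart, but the gene did not reach an unadjusted p of 0.05 (edgeR adjusted p = 0.304).

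The 6 subunits that were not tested were Gabra6, Grin3b, Gabrr1, Gabrr3, Grm6 and Gabrp. Grin3b had between 2 and 12 counts and Gabrr1 between 1 and 6. Exons of Grin3b share 32.1% of their bases with Tmem259 on the opposite strand, so that even these few counts are uncertain. Gabrr3, Grm6 and Gabrp had 3 counts or fewer in every brain library, and the last 2 had none; a count of 0 allowed up to 2.84e-05% of the counts in the shallowest brain library. The rho subunit Gabrr2, known from the retina, was tested at 1.44, 0.96 and 1.30 CPM in control and 1.57, 1.88 and 1.23 CPM after heat stress, which overlapped.

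Levels of different subunits were compared per length, as TPM over the union of exons. In control brain Gabbr1 stood highest at 409 ± 38.5 TPM (SD, n = 3), and Gria1 stood at 290.4 ± 19.5 TPM. The control libraries of these genes did not overlap. Gabbr2 and Gabrb2 stood at 188 ± 51.0 and 188 ± 15.6 TPM, and Grin1 at 171 ± 54.1, all within one another's spread. Highest in their families were Grik5 at 159 ± 23.2 TPM, Grm3 at 88.8 ± 6.33, Grid1 at 33.7 ± 4.46 and the rho subunit Gabrr2 at 2.47 ± 0.57 TPM. With the longest transcript in place of the exon union, Grin1 stood at 292 TPM and at rank 2.

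**Figure D3:**
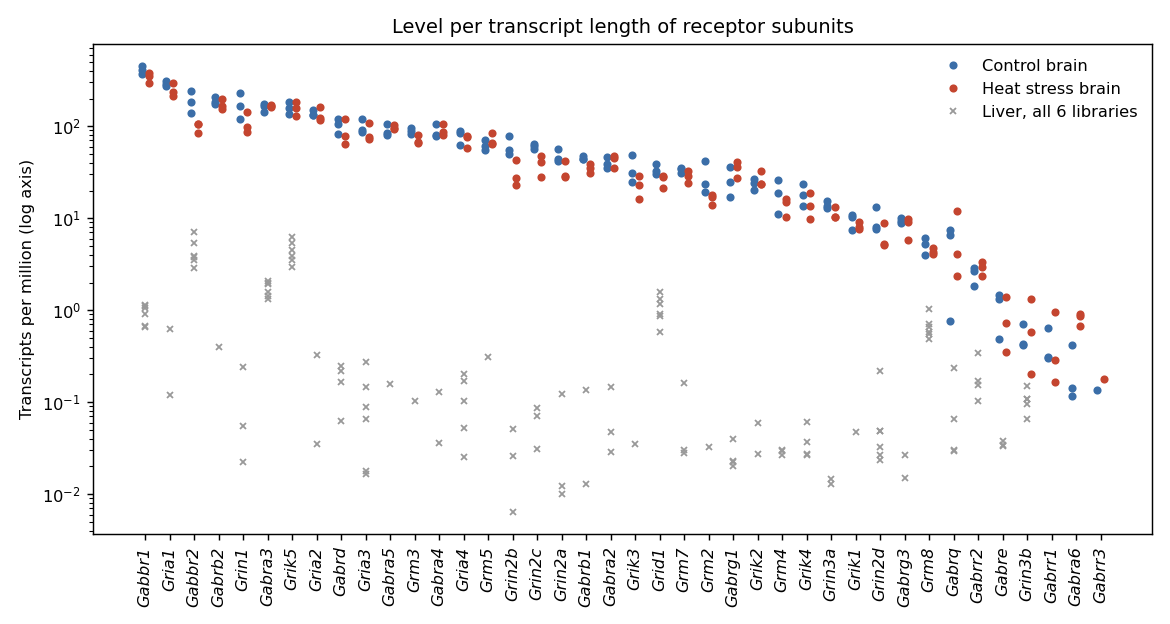
TPM of the subunits described here with a count in control brain are plotted on a log axis, ordered by the control brain mean, with 1 point per library; values of 0 are not drawn. Mean levels in control brain span from 409 TPM for Gabbr1 to 0.0454 TPM for Gabrr3, and most liver values lie below 1 TPM.

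Fold changes in brain varied with the composition of the transcripts. Over 14562 genes with annotation, the log2 fold change had a Spearman correlation of -0.30 with transcript GC content and of -0.33 with exon length. Over the 41 subunits the correlation with GC content was -0.61 and that with exon length was -0.09; the genes of 1 comparison share the same libraries, and these figures are descriptions without a test. Grin1, Grin2c, Grm2 and Gabbr2 have GC contents between 56% and 62.1%, above the median of 49.8% over all genes, whereas Grin2b (45.7%), Grin2a (44.8%) and Gabrb1 (40.9%) lie below it.

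After each library was corrected for transcript length and GC content, 4 subunits were lower at an unadjusted p under 0.05, beside 5.69% of all genes, and 1 was higher, beside 7.35%. The 4 were Gabbr2 (log2 fold change -0.58), Grin2b (-0.62), Gabrb1 (-0.26) and Grm3 (-0.28). The estimates for Grin2c, Grm2, Grin1 and Grin2a were -0.33, -0.48, -0.19 and -0.25 in that fit, and none of these passed the threshold. With a block for the replicate number added to that correction, Grin2c and Grm2 passed and Gabrb1 and Grm3 did not. In the fit with the correction alone, the Spearman correlation of fold change with GC content was -0.02 over all genes. Over the 41 subunits it was -0.33, so the correction did not remove the trend among them. Whether the GC trend is technical was not tested.

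**Figure D4:**
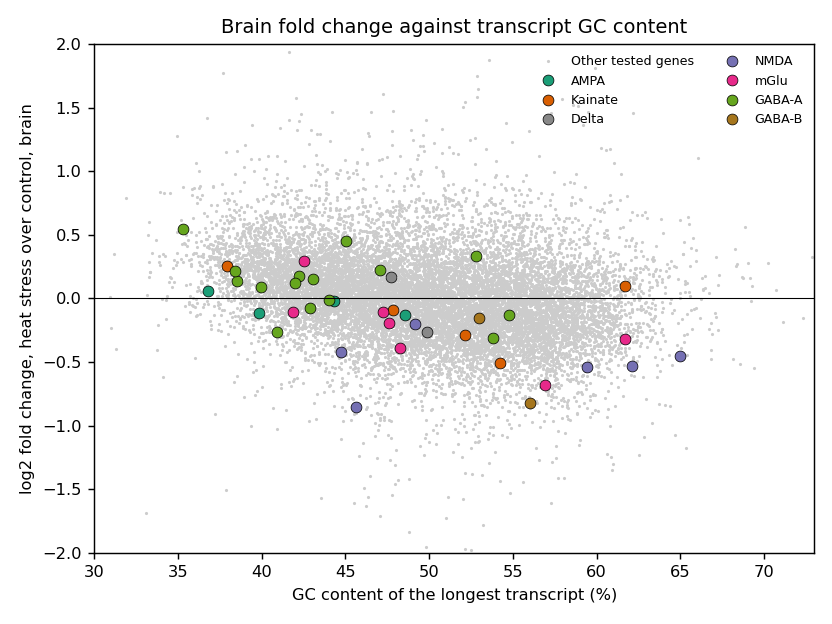
The log2 fold change of heat stress over control in brain is plotted against the GC content of the longest transcript, with grey points for other tested genes and coloured points for the 41 subunits by family; other genes beyond the axes are not drawn. Points of both kinds slope downward with GC content, and Grin2b is the lowest of the 41 coloured points.

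Promoters are shown for Gabbr2 with its partner Gabbr1, which differed in their estimates, and for 3 GC-rich subunits with lower values, Grin1, Grin2c and Grm2. Each window of 300 bases runs from 250 bases before to 50 bases after the RefSeq start on GRCm38.p6, written 5′ to 3′ on the gene's strand. Windows were available for 32 of the subunits, but not for Grin2a or Grin2b. They were searched on both strands for the GC box GGGCGG, the cAMP response element TGACGTCA, the NRF-1 core GCGCATGC and the left part of the RE1 element, TTCAGCACC, and capitals mark the matches.
Gabbr2, chr4:46991665-46991964, minus strand: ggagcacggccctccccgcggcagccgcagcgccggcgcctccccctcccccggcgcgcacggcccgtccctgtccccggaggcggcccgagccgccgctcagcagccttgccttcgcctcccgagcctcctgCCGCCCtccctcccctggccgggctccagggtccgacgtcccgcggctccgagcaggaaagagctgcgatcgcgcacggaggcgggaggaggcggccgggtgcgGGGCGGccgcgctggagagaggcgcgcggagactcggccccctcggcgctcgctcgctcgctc
Gabbr1, chr17:37045716-37046015, plus strand: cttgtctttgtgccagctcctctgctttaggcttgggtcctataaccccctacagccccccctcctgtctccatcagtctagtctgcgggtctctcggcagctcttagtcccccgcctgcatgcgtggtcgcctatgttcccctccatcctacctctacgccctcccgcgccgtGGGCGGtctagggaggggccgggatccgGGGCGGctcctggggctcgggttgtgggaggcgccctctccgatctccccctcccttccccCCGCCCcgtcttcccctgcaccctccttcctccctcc
Grin1, chr2:25319138-25319437, minus strand: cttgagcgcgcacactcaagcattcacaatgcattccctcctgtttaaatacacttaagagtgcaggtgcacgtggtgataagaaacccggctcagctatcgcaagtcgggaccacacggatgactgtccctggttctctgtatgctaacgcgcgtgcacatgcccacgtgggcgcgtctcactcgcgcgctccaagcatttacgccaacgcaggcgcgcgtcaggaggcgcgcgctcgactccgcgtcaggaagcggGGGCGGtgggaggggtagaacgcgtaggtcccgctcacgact
Grin2c, chr11:115267194-115267493, minus strand: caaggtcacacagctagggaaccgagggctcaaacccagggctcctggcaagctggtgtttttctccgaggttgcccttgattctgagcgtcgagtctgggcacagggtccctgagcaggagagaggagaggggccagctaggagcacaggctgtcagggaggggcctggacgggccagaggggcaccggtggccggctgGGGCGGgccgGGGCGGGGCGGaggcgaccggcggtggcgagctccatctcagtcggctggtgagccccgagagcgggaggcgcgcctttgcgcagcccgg
Grm2, chr9:106656060-106656359, minus strand: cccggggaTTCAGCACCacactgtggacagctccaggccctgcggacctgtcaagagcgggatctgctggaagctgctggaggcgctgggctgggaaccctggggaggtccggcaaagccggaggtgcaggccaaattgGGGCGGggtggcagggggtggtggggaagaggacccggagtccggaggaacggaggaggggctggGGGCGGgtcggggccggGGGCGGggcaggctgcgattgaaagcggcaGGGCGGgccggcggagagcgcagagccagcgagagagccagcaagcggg

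The GC content of the windows was 80.3% for Gabbr2, 67.3% for Gabbr1, 60.7% for Grin1, 70.0% for Grin2c and 72.0% for Grm2. GC boxes, which bind Sp1 family proteins, were present 2 times in the window of Gabbr2, 3 times in that of Gabbr1, 1 time in Grin1, 3 times in Grin2c with 2 of them overlapping, and 4 times in Grm2. In all, 35.7% of the 32851 mouse promoter windows held a GC box, as did 19 of the 39 windows of the subunits. The left part of RE1, the element that the neuronal repressor REST binds, was found in 1 of the 32 subunits with a window, Grm2. It was found in 0.371% of all windows. The NRF-1 core was found in 1 subunit, in a downstream promoter of Gabrb1, and in 2.71% of all windows. No subunit window held the cAMP response element, against 1.79% of all windows.

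The other genes of the receptor machinery came from 2 lists. Of 46 auxiliary subunits and scaffolds, 7 were lower and 1 was higher at an unadjusted p under 0.05 in brain, beside 10.0% of all genes in each direction, with a median log2 fold change of -0.15. The smallest p-values were those of Shank2, a postsynaptic scaffold (log2 fold change -0.52 ± 0.14), Shisa6, which keeps AMPA receptors at the synapse (-0.80 ± 0.22), and Gabarap, a protein that binds GABA-A receptors and acts in autophagy (0.47 ± 0.16). Their edgeR adjusted p-values were 0.17, 0.17 and 0.184, so none passed. Of 19 genes of transmitter synthesis and transport, 2 were lower, near that background of 10.0% among all genes, and 0 higher at an unadjusted p under 0.05. Their median log2 fold change was -0.17. The smallest p-value was that of the neutral amino acid transporter Slc38a1 (log2 fold change -0.40 ± 0.13, edgeR adjusted p = 0.177), and Slc6a11, a GABA transporter common in astrocytes, missed that threshold (-0.49 ± 0.33, edgeR adjusted p = 0.422). The enzymes that make GABA, Gad1 and Gad2, had estimates of -0.10 and 0.17.

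Markers of regions and cell types moved beside the receptor genes in the same libraries. The counts that follow are of list genes at an unadjusted p under 0.05, which 10.0% of all genes reached in each direction. Of 12 striatal markers, 11 were higher (median log2 fold change 1.09), with sums of 782 to 1280 CPM in control and 1239 to 2636 CPM after heat stress. Of 12 markers of thalamus and habenula, 5 were lower (median -1.38; sums 175 to 686 and 124 to 359 CPM). Markers of choroid plexus (5 of 8 lower; 1251 to 2491 against 262 to 1131 CPM), endothelium (7 of 8 lower; 247 to 410.2 against 181 to 225 CPM) and oligodendrocyte precursors (4 of 5 lower; 192 to 200.1 against 140.4 to 149 CPM) had sums that lay wholly apart. Pan-neuronal markers overlapped, with 1 of 10 lower and a median of -0.14. Among the rest, 0 of 11 cortical and hippocampal markers passed that threshold in either direction, 2 of 10 tested cerebellar markers and 1 of 6 of olfactory bulb were higher, 1 of 8 astrocyte and 1 of 8 oligodendrocyte markers were lower, and 2 microglial markers were higher and 1 lower. Of the hepatocyte list 2 genes were tested in brain and 1, Ttr, was lower; it also stands in the choroid plexus list. None of the 4 tested skeletal muscle genes passed. No list gene passed the adjusted threshold, and no marker of striatum, thalamus and habenula, choroid plexus, endothelium or oligodendrocyte precursors was at 0 in every brain library. The part that these shifts have in the values of the receptor genes was not tested.

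Between control brain and control liver, 41 subunits could be tested, but only 7 of them also passed the count filter in liver. The rest entered this fit through the brain libraries, where they are high, so the filter set their direction and it is not read here. Those 7 were all higher in brain at an edgeR adjusted p under 0.05, beside 44.2% of all genes, and 0 were lower, beside 36.1%. Their log2 differences ran from 1.27 for Grm8 to 6.75 for Gabbr1. Within liver, 7 subunits passed the count filter, and 40 did not. Of these, 0 passed an unadjusted p of 0.05, beside 5.84% of all genes, and 0 passed the adjusted threshold, beside 0%.

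The level of Gabbr2 was 14.7, 8.81 and 9.97 CPM in control liver and 11.6, 18.2 and 12.6 CPM in heat stress liver. These overlapped. In the libraries with the suffix, 8.81 in control stood beside 11.6 and 12.6 after heat stress, and in those without it 14.7 and 9.97 stood beside 18.2. The log2 fold change over all 6 was 0.34 ± 0.26 (edgeR adjusted p = 0.939). Without control replicate 1 of liver it was 0.58, which passed an unadjusted p of 0.05. The difference between the brain and liver effects on Gabbr2 was -1.14 ± 0.37 on the log2 scale (edgeR adjusted p = 0.516), in a test in which 0.00632% of all genes passed the adjusted threshold. Grik5 had 11.2, 8.40 and 9.88 CPM in control and 7.15, 12.5 and 9.70 CPM after heat stress, with a log2 fold change of -0.01.

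Grm8 had 2.324, 2.202 and 2.33 CPM in control liver and 3.28, 2.51 and 4.89 CPM in heat stress liver. The groups did not overlap, but heat stress replicate 3 lay well above the other heat stress libraries. The log2 fold change over all libraries was 0.63 ± 0.31 (edgeR adjusted p = 0.888). Gabra3, Grid1 and Gabbr1 had means between 2.55 and 3.24 CPM in both groups. Their log2 fold changes lay between -0.19 and 0.21 and their libraries overlapped.

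The 40 subunits not tested in liver summed to 256 counts in liver control replicate 1, where 32 of them had a count, and to 13 to 64 counts in each of the other 5 liver libraries. Grm5, for instance, stood at 1.29 CPM in that library and at 0 in the other 5. Heat stress replicate 2 came next, with 24 of the 40 above 0. The 3 libraries with the unexplained suffix had the lowest sums, at 13, 15 and 19 counts, beside 22, 64 and 256 in those without it; the part of the suffix in these sums was not tested. Pan-neuronal markers summed to 612 counts in control replicate 1 and to 300 in heat stress replicate 2, with all 10 above 0 in both, and to 188 to 255 in the other liver libraries. Of these markers, Syt1 alone had between 129 and 246 counts per liver library. The lowest counts of the others lay between 0 and 13. The 7 tested subunits summed to 627 counts in liver control replicate 1 and to the same number in heat stress replicate 2, a library that also held 27349 counts of skeletal muscle genes beside 12 to 4837 in the others.

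**Figure D5:**
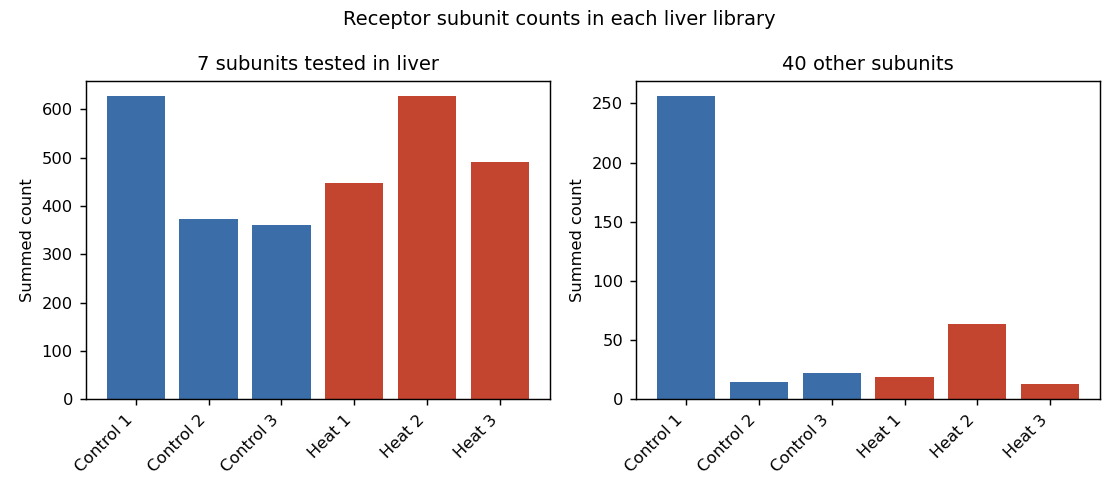
Bars give the summed count, from 0, of the 7 subunits tested in liver (left) and of the 40 other subunits (right) in each of the 3 control and 3 heat stress liver libraries. On the right, control replicate 1 stands at 256 and the other libraries lie between 13 and 64.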

How the data were processed

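The authors sequenced stranded, poly(A)-selected libraries and deposited raw counts of all 12 libraries in 1 table. The counting is described in 2 ways in the methods, and the processing notes name Trimmomatic 0.39, HISAT2 2.2.1 and featureCounts of Subread 2.0.1 on mm10. The use of strand is not given in the sources used here. Their 3 tables of DESeq2 fold changes and p-values were not used. The number of unused per-library columns was 0.

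Within each tissue, heat stress was compared with control in R 4.3.3 with edgeR 4.0.16 (robust quasi-likelihood test, TMM, filterByExpr set to 10 for the minimum count and to 15 for the minimum total), adjusted by Benjamini-Hochberg over all genes tested. Standard errors were computed from the log2 fold change and its F statistic. DESeq2 1.42.0 was an alternative. CPM values are TMM-normalized. A fit of all 12 libraries gave the contrast between tissues and the difference of the heat effects, which was added after the data had been seen. Brain and liver came from the same 3 mice per group, and this fit did not account for the shared animals. Each library was corrected in an alternative by a smooth fit on length and GC content (splines with 5 degrees of freedom). GENCODE M21 (GRCm38, which is mm10) gave the coordinates, lengths and GC content, and 24363 of 25239 symbols and all 47 subunits matched. Promoter sequences are those of RefSeq. Members and gene lists were chosen with earlier results of these data known. Values for every library are given for subunits past the adjusted threshold, for those at an unadjusted p under 0.05 whose groups lay apart, for the highest member of each family per length and for those that passed the filter in liver; for the other pathway genes, up to 3 per list with the smallest p-value are named. Grin1, Grin2a, Grik3, Gabrg1, Gabra6 and some further genes were named after their values had been seen. The procedures were tested on simulated counts. No 2 libraries held identical values. Some members and pathway genes are counted but not reported here by name. With 3 mice per group an exact permutation test of 1 gene cannot reach a p of 0.05, so the tests rest on the fit across genes.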

Additional observations from a re-analysis of the deposited data

How the results depend on the processing

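Alternatives were other size factors, total counts only, DESeq2, all 12 libraries in 1 fit, a stricter or no filter, a replicate block, correction for transcript length and GC content, and each library left out in turn. In brain, 24 of 41 tested subunits kept 1 direction in all 15 alternatives and 17 changed in at least 1. With DESeq2, 2 subunits passed the adjusted threshold and 1, Gabrg1, was higher at an unadjusted p under 0.05. The number higher was 1 with no filter (Gabra6), 1 with the length and GC correction, 1 with the replicate block and that correction together, and 0 to 4 without 1 library. The number lower was 4 with all 12 libraries, 4 with the correction, 4 with the replicate block and the correction, with Grin2c and Grm2 in place of Gabrb1 and Grm3, and 3 to 10 without 1 library; it was 4 without control replicate 1, 3 without heat stress replicate 2 and 10 without heat stress replicate 3. Gabbr2, Grin2b and Grin2c were among them each time a library was left out. The replicate block alone gave 7, without Grin2a and Gabrb1 and with Grik3 among them. Same-numbered brain libraries correlated at -0.289, 0.191 and -0.199 in their deviations from the group means. In liver these correlations were -0.584, -0.509 and -0.0878. With 3 libraries per group they gave no sign that the numbers pair the samples but cannot settle it. The block changed no call at the adjusted threshold, which no subunit had passed in edgeR without it. The median log2 fold change of the subunits lay between -0.186 and -0.0308 without 1 library. In liver the number at an unadjusted p under 0.05 was 11 with all 12 libraries, 1 with no filter, 1 with the correction, and 0 to 1 without 1 library. Of these 11, 9 were lower after heat stress, and the control group holds the liver library that stood apart. The sign turned in brain for Gabbr1 (0.0636 with the correction and 0.0638 with block and correction) and for Grik5 (-0.0232 to 0.222 without 1 library); in liver it turned without 1 library for Grik5 (-0.226 to 0.159) and Grid1 (-0.0507 to 0.615). For Gabbr2, the adjusted p of the difference between tissues lay between 0.0991 and 0.784 over the leave-outs. The cause of these moves was not tested. With 3 mice per group, depth of 10466198 counts or more and brain regions that are not named, subunits below about 1 CPM could not be compared.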
